A study of Mus musculus with 8 samples.

Results

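The loss of N6-methyladenosine (m6A) sites after knockdown of Virma in TBLC was set, gene by gene, against the change in transcript coverage in the same libraries. TBLC are totipotent blastomere-like cells, mouse stem cells held in a state that resembles early embryo blastomeres, and were cultured here in MYCP medium. The samples are the 4 TBLC libraries of the series, chosen by their titles from 8 libraries in all: 2 received a control siRNA (siNC) and 2 an siRNA against Virma (siVirma). The other 4 libraries are of another cell type and another experiment and were not used. Both groups share the cell type and medium, no genotype beyond the siRNA is given, and neither the siRNA dose nor the time after transfection is stated in the labels. Nothing in the labels tells whether the replicates are separate cultures; p-values therefore measure only how these libraries vary, and part of that may be technical.

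m6A is written on nuclear RNA by a complex in which Mettl3 carries the catalytic activity, Mettl14 holds the RNA, Wtap is the adaptor and Virma is the large scaffold that joins Wtap to the other subunits. Virma is best known for m6A near stop codons and in 3′ untranslated regions. The mark is read by YTH domain proteins, and in the cytoplasm it is known for speeding the decay of many transcripts. GLORI measures it chemically: unmethylated adenosine is converted and read as G, methylated adenosine is still read as A, and the level of a site is the fraction of its reads that are still A.

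Each library has its own list of called sites. The siNC lists hold 66350 and 61957 sites in 9682 and 9365 genes, and the siVirma lists 41082 and 34739 sites in 8171 and 7556 genes. They hold 4764955 and 4367999 A+G reads in siNC and 3423268 and 2655963 in siVirma. A site is listed only with at least 15 A+G reads, 5 A reads and a level of 0.1, so a site that is missing from a list has no level there. Below, a site is called lost when it was in both siNC lists and in neither siVirma list. The deposited gene coverage is a signal given for each gene with a listed site; its lowest value is 15, and values are given for each library in the order siNC 1, siNC 2, siVirma 1 and siVirma 2. For the 6787 genes with a value in all 4 libraries the median coverage was 39.3, 37.6, 46.4 and 40.1, and coverage changes are relative to these medians. The centring took out a general rise of 0.17 (log2) in siVirma. Unconverted adenosines made up a median of 1.88% and 1.89% per gene in siNC, by the authors' conversion rates, and 1.20% in both siVirma libraries. That difference moved with site loss, and its part in the loss was not tested. Of the marker lists used to check the cell type, 31 of 32 naive pluripotency genes and 18 of 39 genes of the 2-cell stage program had a listed site; Dux, which drives that program, had none.

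Virma transcript coverage fell and Wtap coverage rose. Virma (chromosome 4, sites from 11513308 to 11550481, mm39) had a coverage of 40.3, 38.2, 24.1 and 22.8. Virma was lower in each knockdown library than in either control, a log2 change of -0.91 (SE 0.06, limma, adjusted p = 0.000403) or 0.531-fold. A+G reads fell to 0.314-fold (edgeR, adjusted p = 1.62e-12), but this rests on the 1 site with 20 or more reads in all 4 libraries, with 88, 79, 38 and 24 reads. Of its 29 sites in both siNC lists, 14 were lost, 9 were in 1 siVirma list and 6 in both. The same site kept 79.8% of its siNC level, from 0.804 ± 0.0444 to 0.641 ± 0.0233 (SD, n = 2 each; edgeR, adjusted p = 0.0171), a call lost without siNC replicate 2 and without siVirma replicate 1. Across all genes tested the median share kept was 44.9%.

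Wtap (chromosome 17, sites from 13186389 to 13193604, mm39) had a coverage of 45.0, 49.3, 107 and 93.6. The groups did not overlap, and the log2 change was 0.92 (SE 0.07, limma, adjusted p = 0.000625) or 1.89-fold. The call was lost without siVirma replicate 1 (0.93, adjusted p = 0.0568). Of its 9 shared siNC sites, 2 were lost. At 3 sites its level fell from 0.706 ± 0.0432 to 0.171 ± 0.00948 (SD, n = 2 each), so 24.2% of the level was kept (edgeR, adjusted p = 1.14e-20). Virma thus had less coverage, and at the 1 site tested it kept more of its level than the median gene. Wtap had more coverage, and at the 3 sites tested, where reads rose, it kept less. A further listed site, 13193604, had too few siVirma reads for the level test (19 and 15). Its level fell less, from 0.907 and 0.875 to 0.632 and 0.533. In Wtap the contrast therefore holds for the 3 tested sites and not for this further site. The Virma sites in all 4 lists with too few reads for the test also kept most of their level. Position 11519200, which kept the smallest share among these, went from 0.661 and 0.681 to 0.440 and 0.444. Sites missing from a siVirma list have no level there, so the contrast is not stated for the whole genes.

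The rise in Wtap reads was not shared by its whole span. A+G reads at position 13186423, near the low end of the listed sites, were 65, 65, 265 and 170, and the level there was 0.862, 0.785, 0.245 and 0.177. At position 13193604, the highest listed site, reads were 54, 48, 19 and 15, and the level was 0.907, 0.875, 0.632 and 0.533. The first position rose by 1.47 and the second fell by 1.84 on the log2 scale (edgeR on reads per site, adjusted p = 1.35e-18 and 4.15e-09). Of 23354 sites tested in this way, 3.34% rose and 4.65% fell. The gene is on the minus strand, so the site that fell lies upstream of those that rose.

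Site loss followed the level a site had in siNC. In all, 49554 sites were in both siNC lists, 46343 of them in 8492 named genes; 33.1% were lost, 19.8% were in 1 siVirma list and 47.1% in both. The 2 siVirma lists missed 40.9% and 45.1% of them. Lost sites had a median siNC level of 0.215, sites in 1 list 0.348 and sites in both 0.666. Of the sites with a siNC level of 0.1 to 0.2, 85.5% were lost, against 57.2% from 0.2 to 0.3, 26.7% from 0.3 to 0.5 and 7.95% from 0.5 to 0.7. From 0.9 upward the share was 1.61%.

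Depth moved these shares most in the middle of the range. Where both siNC libraries had 100 or more reads, 93.2% of sites from 0.1 to 0.2 and 6.40% of sites from 0.3 to 0.5 were lost. At a level of 0.5 or more and that depth, 0 of 2192 sites were lost, which allows a share of up to 0.137% (counting error only). At the same level and under 30 reads, 9.96% were lost. From 0.3 to 0.5 the share fell from 46.0% at 15 to 30 reads to 16.7% at 30 to 50, 9.70% at 50 to 100 and 6.40% above. The lists do not say why a site is missing, whether by 1 of these minimums or otherwise. In Neat1, position 5894021 had a level of 0.807 with 533 reads in siNC 1, and 0.492 and 0.496 in siVirma. It had no value in siNC 2, where position 5894054 had 501 reads.

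**Figure D1:**
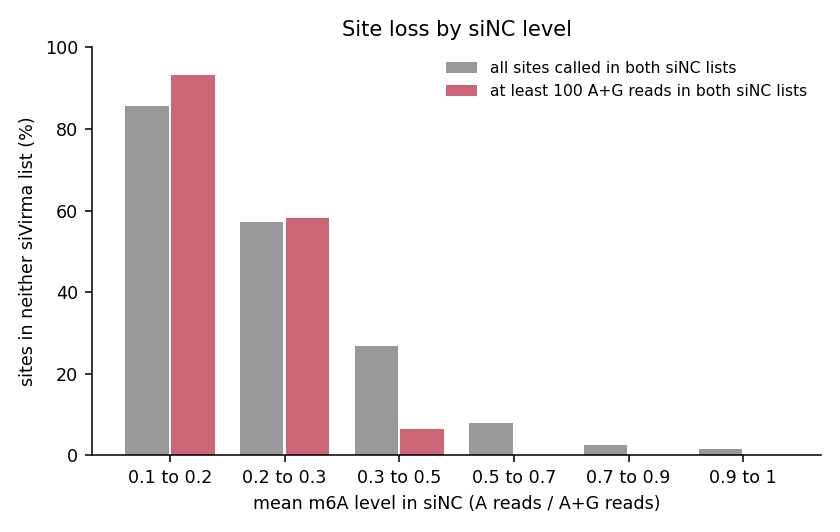
Share of sites in neither siVirma list (%, vertical axis) by mean siNC level (fraction, horizontal axis), for all sites in both siNC lists (grey) and those with 100 or more reads in both (red). The grey bars fall from 85.5% to 1.61%, and the red bars from 93.2% to 0 at a level of 0.5 and above.

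Genes with many sites lost a smaller share of them. The 2065 genes with 1 shared siNC site lost 43.4% of their sites, the 2229 genes with 2 to 3 sites 40.8%, the 2784 with 4 to 9 sites 35.2% and the 1414 with 10 or more 28.4%. All sites were lost in 896, 342, 34 and 0 genes of these classes. Among genes with 10 or more sites the median gene lost 27.8% (quartiles 18.2% and 38.5%), and 36 genes lost none.

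Most genes with the largest share lost had mainly sites of low level. The 6 genes with 10 or more sites and the highest share were 0610030E20Rik with 9 of 10 lost, Baz2b (a bromodomain protein) with 8 of 10, Sbk1 (a kinase) with 11 of 14, Rrn3 with 10 of 13, Mrpl10 with 11 of 15 and Nktr with 11 of 15. In Rrn3, the initiation factor of RNA polymerase I, 76.9% of the shared sites had a siNC level under 0.3. In Mrpl10, a protein of the mitochondrial ribosome, the share was 80.0%. In Sbk1, Nktr and Baz2b it was 64.3%, 66.7% and 50.0%. In 0610030E20Rik only 2 of 10 sites were under 0.3, and its median depth was 23.0 reads. Its coverage was 22.1, 22.3 and 26.9, with no value in siVirma 2.

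Rrn3 (chromosome 16, mm39) shows the pattern site by site at high depth. At position 13631195 the level was 0.886, 0.872, 0.356 and 0.324, with 226 to 306 reads. At position 13631334 it was 0.435, 0.533, 0.191 and 0.184. At these sites each siVirma value was under each siNC value. Position 13598609 differed, at 0.250, 0.137, 0.191 and 0.169, and there the groups overlapped. Position 13631502, at 0.213 and 0.219 in siNC with 381 and 476 reads, was in neither siVirma list, and neither was 13631232, at 0.323 and 0.315. The listed sites together kept 42.2% of their level (edgeR, adjusted p = 2.59e-20). Rrn3 coverage was 182, 175, 212 and 176, a centred log2 change of -0.05 (SE 0.05, limma, adjusted p = 0.480).

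Among genes that lost no site, the 6 with the most sites were Gpat4 and Rnf139 with 20 sites each, Smad7 with 16, Col6a3 and Kti12 with 15 each and AI837181 with 14. Smad7 is the inhibitory Smad of the TGF-beta pathway, Gpat4 makes glycerolipids and Rnf139 is a ubiquitin ligase of the endoplasmic reticulum. Keeping every site in a list did not mean keeping the level. The level fell in all 6 (edgeR), and they kept 50.9% to 55.4% of it: Gpat4 kept 53.3% over 16 sites and Smad7 54.0% over 10. Between 6.67% and 33.3% of their sites were under 0.3 in siNC.

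The level fell in nearly every gene tested. Of 5642 genes with reads enough for the test, 93.8% fell (5294 genes) and 0.177% rose (10 genes; edgeR, adjusted p under 0.05). The 10 that rose include the transfer RNA genes Trnak-cuu, n-TKctt16, n-TSaga1 and n-TStga1 and the ribosomal protein gene Rps19, named here after their values were seen. Reads of transfer RNA and ribosomal protein genes can be shared between near-identical copies. With at least 50 reads per site, 3 genes rose, and without siNC replicate 2, 4 rose, of which 1 was among the 10.

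Most coverage changes were small. Of 6787 genes, limma called 621 as risen (9.15%) and 841 as fallen (12.4%) at an adjusted p under 0.05, or 21.5% in either direction. In 67.5% of genes the siNC and siVirma values were separate. In all, 99.2% of genes stayed within 1.5-fold, 33 rises and 20 falls went beyond it, and 8 genes went beyond 2-fold. The median change of the called genes was 0.26 in absolute log2, where replicates differed with an SD of 0.094 in siNC and 0.110 in siVirma. Leaving out 1 library moved the counts of calls, most of all without siVirma replicate 1. Such a fit has only 1 library in a group, so a call lost there need not mean that the change itself was lost. Of 60 named genes with coverage, 2 changed direction without siVirma replicate 1. The split depends on the centring, with 902 rises and 609 falls when centred on genes with 1 site, 642 and 30 with no centring, and 505 and 417 by edgeR on A+G reads at shared sites (8.95% and 7.39% of 5642 genes).

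The 8 largest rises, chosen among called genes with no overlap between groups, were Hes6, Gpc1, Col6a3, Sp5, Col6a1, Gm9390, Cbr3 and Col6a2. Hes6, a helix-loop-helix factor that counters Hes1, had a coverage of 44.9, 42.5, 153 and 120. Both siVirma libraries stood above both siNC libraries, a log2 change of 1.46 (SE 0.06, limma, adjusted p = 5.44e-05) or 2.76-fold. It lost 8 of 9 sites. At position 91339763 on chromosome 1 its level was 0.422 and 0.391 in siNC with 90 and 87 reads; it was not in the list of siVirma 1, and in siVirma 2 it was 0.109 with 221 reads.

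Sp5, a zinc finger target of Wnt signalling, had a coverage of 39.2, 37.8, 107 and 82.9, a log2 change of 1.12 (SE 0.06, limma, adjusted p = 0.000203). The groups did not overlap, and only 1 of its 16 sites was lost. Its level fell from 0.674 ± 0.00884 to 0.304 ± 0.000737 (SD, n = 2 each) over 9 sites, or 45.2% kept. Within the gene the levels kept ranged widely: position 70307630 on chromosome 2 was 1, 1, 0.858 and 0.927, and position 70307766 was 0.608, 0.544, 0.144 and 0.177. Hes6 thus rose 2.76-fold with 8 of 9 sites lost, and Sp5 2.18-fold with 1 of 16 lost.

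The 3 collagen VI chains rose together. Col6a3 coverage was 23.9, 22.7, 63.4 and 53.9 (log2 1.16, SE 0.05), and Col6a1 and Col6a2 rose by 1.11 and 0.94 (limma, adjusted p = 5.44e-05 to 0.000278). Gpc1, a heparan sulfate proteoglycan, went from 32.3 and 31.8 to 92.0 and 71.1, and Cbr3, a carbonyl reductase, from 75.7 and 68.5 to 181 and 141. These 8 genes were all called without siVirma replicate 1 except Gm9390 (adjusted p = 0.0575). The collagens belong to a list of fibroblast or feeder markers whose 13 genes with coverage summed to 12.0 and 11.8 times the median gene in siNC and 17.3 and 16.5 times in siVirma; the part of such cells in these rises was not tested. In bulk libraries more cells of a type and more RNA per cell cannot be told apart. Among genes with 10 or more sites, the next rises were those of the BMP antagonist Grem1 at 0.90 and the activin subunit gene Inhbb at 0.69.

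The largest falls, likewise chosen among called genes with no overlap between groups, included Ptgs2, Neat1, Tnfrsf23, Virma, Zfp971, Gm42262 and Gm4036. Ptgs2, the inducible cyclooxygenase, had a coverage of 95.6, 90.3, 49.7 and 43.9. The groups did not overlap, and the log2 change was -1.16 (SE 0.05, limma, adjusted p = 5.44e-05) or 0.448-fold. It lost 7 of 10 sites, none of which had a siNC level above 0.421. Position 149981275 on chromosome 1 was 0.966, 0.959, 0.847 and 0.734, with 205, 241, 85 and 94 reads, and position 149981182 went from 0.779 and 0.756 to 0.182 and 0.246.

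Neat1, the long noncoding RNA of paraspeckles, had a coverage of 280, 280, 157 and 143, a log2 change of -1.07 (SE 0.05, limma, adjusted p = 0.000180). The groups did not overlap, and the RNA lost 15 of 24 shared sites, whose median siNC level was 0.230 over all 24. The 9 sites in all 4 lists kept 47.3% of their level, against 44.9% for the median gene, on 2747 and 2734 reads in siNC and 1918 and 1493 in siVirma. Among genes with 10 or more sites, Ccn1, a matrix protein induced by YAP, fell by 0.66. These falls kept their call without siVirma replicate 1.

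**Figure D2:**
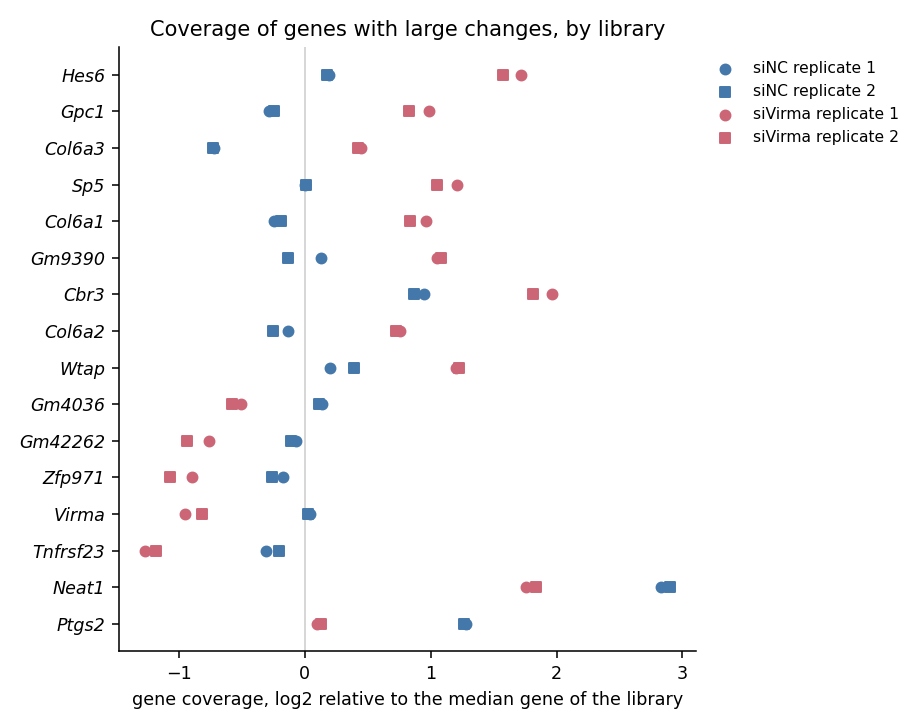
Gene coverage relative to the library's median gene (log2, horizontal axis) for the 8 largest rises, 7 of the largest falls and Wtap, 1 point per library (blue siNC, red siVirma, circle replicate 1, square replicate 2). The rises and falls were chosen among genes with no overlap between groups, so their red points lie on 1 side of their blue points by that choice. Changes run from Hes6 with 1.46 to Ptgs2 with -1.16.

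Set against each other, site loss and coverage change showed no order that held for every choice of genes and sites. Among genes with at least 5 shared sites, the 96 whose coverage changed by less than -0.3 (log2) lost a median of 33.3% of sites, the 3147 within 0.3 lost 30.8% and the 161 above 0.3 lost 28.6%. The difference between the outer classes was 4.76 percentage points, and ranged from 2.50 to 8.73 when each library was left out. With loss counted from each siVirma list alone, which is another measure of loss, the 2 differences had an SD of 5.65, larger than 4.76. Over genes with any number of shared sites the order turned, with medians of 20% below -0.3 and 27.0% above 0.3. The order was likewise turned over single sites with 100 or more reads in both siNC lists, of which 30.8% and 39.6% were lost. The genes within 0.1 of no coverage change that lost most, Rrn3, Mrpl10, Mlec and Frrs1, lost 70.0% to 76.9%. At classes beyond 0.5 the difference was 12.6 percentage points.

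Within a band of levels the share lost went with coverage, in opposite directions at high and low levels. At a siNC level of 0.5 or more, 6.63% of sites were lost in genes with lower coverage, 3.24% in those within 0.3 and 1.30% in those with higher coverage. From 0.3 to 0.5 the order was the same, with 26.1%, 23.7% and 20.7%. From 0.1 to 0.3 the order was turned, with 64.1%, 69.7% and 75.7%. With at least 100 reads and a level of 0.5 or more, 0 of 92, 0 of 1728 and 0 of 123 sites were lost in the 3 classes, which allow shares of up to 3.26%, 0.174% and 2.44%. No test was run on these shares, since sites of 1 library are not replicates.

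**Figure D3:**
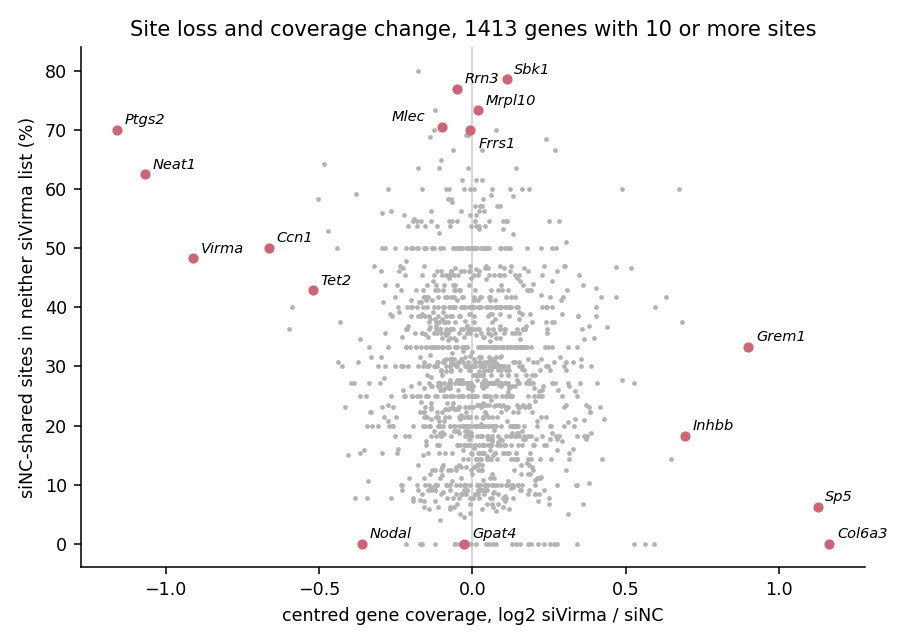
Share of a gene's shared siNC sites in neither siVirma list (%, vertical axis) against its centred coverage change (log2 siVirma over siNC, horizontal axis), 1 point for each of the 1413 genes with 10 or more sites and a coverage in all 4 libraries; named genes in red. Ptgs2 with 70.0% lost and Col6a3 with 0 lie at the outer ends, and Rrn3 with 76.9% lost lies near a change of 0.

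More sites per gene went with slightly higher coverage. The median centred change was -0.09 for genes with 1 shared siNC site, -0.06 with 2 to 3, -0.03 with 4 to 9 and 0.01 with 10 or more. In the same order 4.22%, 6.79%, 10.0% and 13.7% of genes rose, and 16.3%, 14.2%, 11.2% and 9.41% fell. These values cover the 925, 1650, 2677 and 1413 genes with coverage in all 4 libraries. Those are 44.8%, 74.0%, 96.2% and 99.9% of the genes in each class. Their median siNC coverage was 32.3, 34.4, 39.8 and 44.0. The part of this selection and of depth in the order was not tested. The difference in median log2 coverage between the class with 10 or more and the class with 1 was 0.44 and 0.47 for siNC and 0.58 and 0.51 for siVirma. The groups did not overlap, but with 2 libraries against 2 the two-sided exact permutation test gives p = 0.333, the smallest it can give. The 2 classes' median changes differed by 0.0993 in log2, and by 0.0627 to 0.145 without each library.

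Genes that kept less of their level had the higher coverage change, by a small step at the end of the range. In the 1411 genes that kept least (19.1% to 38.3% of the siNC level), the median change was -0.00 and 13.5% of genes rose. In the 1411 that kept most (53.5% to 208%), it was -0.07, 5.95% rose and 17.8% fell. Both classes between them had a median of -0.02. Between the outer classes the median log2 coverage itself differed by 0.48 and 0.52 for siNC and 0.58 and 0.56 for siVirma. The difference of 0.07 in the change was 0.05 and 0.08 when level and coverage were taken from different libraries, and 0.04 with at least 50 reads per site. A listing needs at least 5 A reads, so the level kept is not independent of the number of reads. The exact permutation test over libraries again gave p = 0.333, its smallest value.

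**Figure D4:**
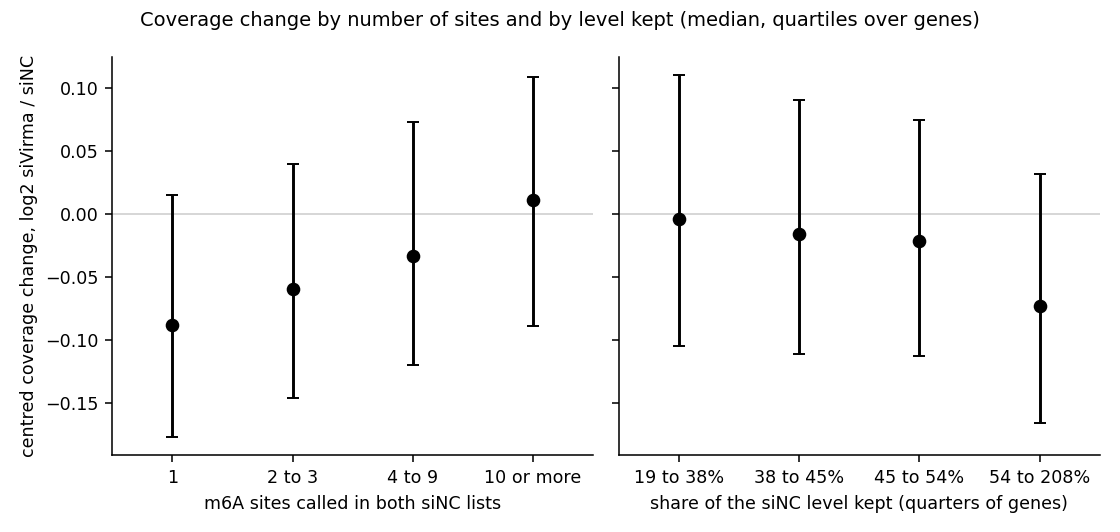
Centred coverage change (log2 siVirma over siNC, vertical axis) by the number of shared siNC sites (left) and by the share of the siNC level kept (right); points are medians over genes and bars run from the lower to the upper quartile. Medians go from -0.09 to 0.01 on the left and from -0.00 to -0.07 on the right, within quartiles that overlap in every class.

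Most genes combined a lower level with no called coverage change. Of the 5642 genes with both tests, 4130 had a lower level and no coverage call, 598 a lower level and lower coverage, and 566 a lower level and higher coverage. Among genes whose level fell, those with lower coverage kept a median of 46.2% and those with higher coverage 41.9%. Whatever their level call, genes below -0.3 in coverage kept a median of 54.0% and genes above 0.3 kept 41.1%. The level kept covers only sites still listed in every library, and a listing needs at least 5 A reads. Where reads fell, a site of low level is thus more easily missed, which leaves sites of higher level. The part of this minimum in the differences between coverage classes was not tested. The 917 genes with shared siNC sites and no site in either siVirma list (10.8% of 8492) have no coverage value there, so they could not enter this comparison. Their median siNC level was 0.219, against 0.466 for the others. They include Fn1 (fibronectin; 7 sites, median level 0.152, coverage 188 and 178 in siNC), Cald1, Cdkn1c and Dusp9, with 5 sites each.

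In the writer complex, limma called Virma and Wtap among 9 genes with coverage in all 4 lists, where 21.5% of all genes were called. The median change was -0.00, against -0.04 for all genes. Mettl14 was 26.1, 25.7, 28.7 and 25.8 (-0.10, adjusted p = 0.196) and Zc3h13, the zinc finger subunit, was 27.7, 25.5, 33.2 and 29.6 (0.07, adjusted p = 0.341). Rbm15, which brings the complex to RNA, had the next largest change at 0.25 (limma, adjusted p = 0.0518). By A+G reads Rbm15 rose by 0.60 (edgeR, adjusted p = 0.00572), and limma called it with no centring, with centring on genes with 1 site and with a replicate block. All 8 genes with a level test fell, and the list kept a median of 51.5%.

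Among 8 m6A readers and erasers, 2 rose and none fell (median 0.14), where 9.15% of all genes rose and 12.4% fell. The nuclear reader Ythdc1 was 52.1, 50.2, 78.2 and 64.7, a rise of 0.31 (SE 0.05, limma, adjusted p = 0.00852), and Prrc2a rose by 0.28 (adjusted p = 0.0182). Both calls were lost without siVirma replicate 1. By A+G reads at shared sites Ythdc1 was at -0.10 (edgeR, adjusted p = 0.685), so its direction depends on the measure. The cytoplasmic reader Ythdf2 was at 0.19 and the demethylases Fto and Alkbh5 at 0.11 and 0.13, none called by limma. Ythdf2 rose by 0.44 by A+G reads (edgeR, adjusted p = 0.000112), and limma called it with no centring, with centring on genes with 1 site and with a replicate block.

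Of 13 genes of the 2-cell stage program, which marks totipotent blastomeres, 7 fell and none rose (median -0.28), where 12.4% of all genes fell. The 7 were Zscan4b, Eif1ad3, Dppa2, Tdpoz3, Eif1ad8, Usp17lc and Usp17la. This list, like the others, was chosen with earlier results of these data known, so its shares are descriptive. Eif1ad3 was 68.7, 63.8, 55.8 and 46.2 (-0.55, SE 0.05, limma, adjusted p = 0.00141), and Dppa2, an early embryo chromatin factor, was 46.5, 45.1, 42.1 and 34.8 (-0.42, adjusted p = 0.00329). With no centring 2 of the 7, Eif1ad3 and Zscan4b, were still called, and without siVirma replicate 1 none was (median -0.18). By A+G reads 2 of 12 fell, Eif1ad3 and Tdpoz3 (edgeR, median -0.18), and Dppa2 was at -0.27 (adjusted p = 0.341). Except for Dppa2 these belong to families of near-identical copies whose reads the counting could split, and 21 of the 39 listed genes, Dux among them, had no listed site in any library.

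Of 13 fibroblast or feeder markers with coverage in all 4 lists, 9 rose and none fell (median 0.26), where 9.15% of all genes rose. They were the collagens Col1a1, Col1a2, Col5a1, Col5a2, Col6a1, Col6a2 and Col6a3 and the transcription factors Prrx1 and Twist2. Col1a1 went from 75.9 and 72.2 to 127 and 102. Without siVirma replicate 1 the 3 collagen VI chains were still called. All 13 were higher in siVirma, called or not. Of the 25 genes of the list, 22 had a listed site in any library, and Dcn, Acta2 and Fap had none. A gene with no listed site can still be expressed. Whether the cultures hold feeder cells was not tested. The list was chosen with earlier results of these data known, so its shares are descriptive.

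By limma on centred coverage, pluripotency genes moved in both directions, with more falls than rises. Of 28 naive genes with coverage in all 4 lists, 2 rose and 5 fell (median -0.06), where 9.15% of all genes rose and 12.4% fell. With no centring 2 rose and none fell. By A+G reads 7 of 27 naive genes fell and 3 rose (edgeR, median -0.04), where 7.39% of all genes fell and 8.95% rose. Tet2, a DNA demethylase, was 29.9, 28.4, 23.7 and 21.9 (-0.52, SE 0.05, limma, adjusted p = 0.00210), lost 9 of 21 sites and kept 77.9% of its level. Sall1 rose by 0.34 (adjusted p = 0.00650). Sox2 was at -0.05, Nanog at -0.18 and Klf4 at -0.01, none called by limma. Nanog fell by 0.34 by A+G reads (edgeR, adjusted p = 2.97e-07), and limma called it with a replicate block. Of 10 primed epiblast genes, Lefty2 rose by 0.27 and 3 fell, with Nodal, a ligand of the TGF-beta family, at -0.36 and 0 of 12 sites lost. None of these limma calls on coverage was kept without siVirma replicate 1.

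Of 15 primitive endoderm genes, which the series is about by its title, 3 fell and none rose (median -0.12), where 12.4% of all genes fell. Gata6, a transcription factor of that lineage, was 30.6, 29.3, 30.7 and 26.8, a centred change of -0.23 (SE 0.05, limma, adjusted p = 0.0182). The uncentred values of the groups overlap, and after centring they do not. It lost 3 of 10 sites and kept 47.4% of its level. The basement membrane chains Lamb1 and Col4a1 fell by 0.21 and 0.19 (limma). In the test of A+G reads 3 of 14 fell, among them Col4a1, and 1 rose, and Gata6 was not called (edgeR, adjusted p = 0.0595). None of the 15 was called with no centring, without siNC replicate 1, without siNC replicate 2 or without siVirma replicate 1.

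Of 32 immediate early and short-lived transcripts, 9 fell and 4 rose (median -0.09), where 12.4% of all genes fell and 9.15% rose. With no centring 3 rose and 1 fell (median 0.07), and without siVirma replicate 1 only Ccn1 was called. Ccn1 was 65.3, 60.2, 48.6 and 40.7, and Nr4a1, Id1 and Id3 fell by 0.44, 0.49 and 0.37 (limma, adjusted p = 0.000625 to 0.0120). Mycn, a Myc family factor, rose from 45.9 and 44.9 to 80.3 and 67.0 with 0 of 10 sites lost (0.53, adjusted p = 0.00147), while Myc fell by 0.23. By edgeR on reads 5 rose and 5 fell in this list. Ccn1 and Ccn2, both YAP targets, were among the 3 of 14 trophectoderm and Hippo genes that fell.

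Of 23 Wnt genes, 6 rose and 2 fell (median 0.02), where 9.15% of all genes rose and 12.4% fell: the ligand Wnt5a rose by 0.57, the receptors Fzd10, Lrp5 and Fzd2 by 0.34, 0.26 and 0.22, and the ligand carrier Wls fell by 0.39. In the p53 list, 4 of 28 rose and 7 fell (median 0.00), against the same shares of all genes; with no centring 4 rose and none fell. Btg2, an antiproliferative factor that recruits deadenylases, was 153, 152, 273 and 223 (0.53, adjusted p = 0.00206) and the nuclease Aen rose by 0.44, while Trp53 and Mdm2 fell by 0.30 and 0.24. Aen by A+G reads was at 0.03 (edgeR, adjusted p = 0.839). Of these only Sp5 in the Wnt list was called without siVirma replicate 1.

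In the remaining lists limma called no gene without siVirma replicate 1. Over all genes 21.5% were called in either direction. Of 37 Polycomb and chromatin regulators, 5 rose and 3 fell, with Setdb1, a histone H3K9 methyltransferase, at 0.29 and Jarid2 at -0.27. Of 37 decay genes, Btg2 rose and 3 fell, with the decapping enzyme Dcp2 at -0.35. Of 29 FGF-ERK genes, Spry2 fell by 0.28, and of 24 cell cycle genes, Ccnd1 rose by 0.19, a direction not kept by A+G reads (-7.7e-05). Among 11 interferon and double-stranded RNA sensing genes, Mavs and Irf3 rose. Of 32 splicing factors, Srrm2 rose by 0.31 and U2af2 and Rbm39 fell. The 40 genes of this list with shared siNC sites lost 46.2% of those sites, where 32.9% were lost over all named genes. The part of siNC level and depth in this difference was not tested. Of 11 genes of S-adenosylmethionine metabolism, Mthfd2 and Mat2b fell.

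**Figure D5:**
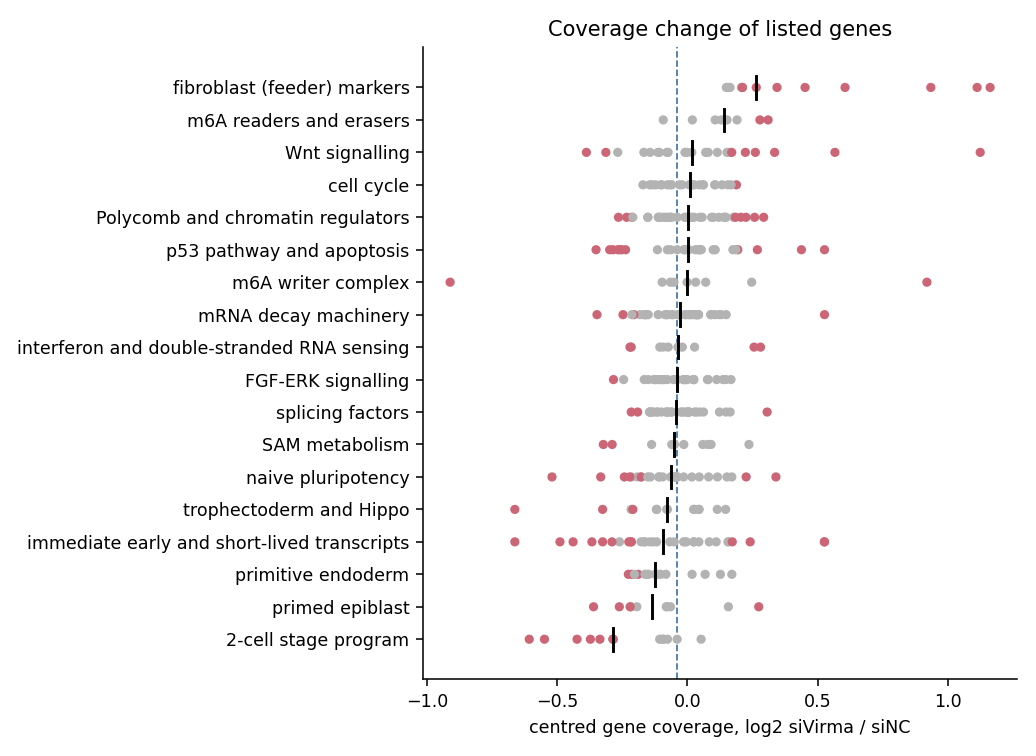
Centred coverage change (log2 siVirma over siNC, horizontal axis) of the genes of 18 lists; red points passed limma's adjusted p of 0.05, grey did not, black bars are list medians and the dashed line is the median of all genes at -0.04. The fibroblast list sits highest with a median of 0.26 and the 2-cell list lowest with -0.28.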

How the data were processed

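The 4 TBLC libraries are GLORI libraries of mRNA, per the labels' protocols. Build mm39 is named in the submitters' processing notes, while no source used here gives the aligner or site caller. The authors deposited, for each called site and library, counts of A+G and A reads, the level as a fraction, and a p-value and adjusted p-value, per the file headers. The deposited gene coverage signal and the conversion rate, a fraction, come with no account of how they were computed; coverage need not be expression. The p-values were used only to filter sites in 1 alternative. No mm39 annotation was used here, so exons and UTRs are not stated.

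Groups came from sample titles. Sites were matched on chromosome, position and strand. Rows with no gene (6.14% to 7.70% of a list) stayed out of gene counts. Levels were tested per gene with edgeR 4.0.16 (quasi-likelihood) in R 4.3.3, on A and G reads summed over sites in all 4 lists where every library had 20 or more reads, with 1 term for each library and a group term on the A reads. Log2 coverage, centred on each library's median gene, was tested with limma 3.58.1. Both used Benjamini-Hochberg adjustment over all genes, at 0.05, and were tested on simulated data. A+G reads per gene and per site were compared by edgeR with TMM scaling, chosen after seeing the data. Python 3.11.15 (pandas 2.3.3, numpy 2.4.6, scipy 1.17.1, matplotlib 3.10.9) gave the summaries and plots.

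The members and the 18 gene lists were chosen with earlier results of these data known. Named genes were Virma and Wtap; the 8 largest called rises and falls in coverage (mean of at least 20, no overlap); among genes with 10 or more shared sites, the 6 with most and the 6 with least lost, the 4 largest rises and falls, and the 4 most lost within 0.1 of no change; the 4 unlisted genes with most sites; and the 2 lowest coverage p-values of each list. Results for some genes chosen by this rule are not reported here. Alternatives covered read and level minimums, centring, filters, the pseudocount, the test, the replicate block and each library left out.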

Additional observations from a re-analysis of the deposited data

How the results depend on the processing

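The share of lost sites, 33.1%, was 52.9% when absence from 1 siVirma list was enough, 37.1% at 50 or more reads, 42.0% at 100 or more, 3.61% at a level of 0.5 or more, and 40.9% to 45.1% without each library. Genes with a lower level numbered 3108 at 50 or more reads per site, where fewer genes were tested, and 5331 to 5667 without each library; those with a higher level numbered 3 and 4 to 9. Without each library, 15 to 580 genes rose and 10 to 785 fell in coverage, the lowest without siVirma replicate 1; with no centring 30 fell, and by edgeR on A+G reads 417. The contrast by number of sites was 0.0627 to 0.145 without each library; the contrast by level kept was 0.0389 at 50 or more reads and 0.0461 to 0.0925 without each library. The difference in sites lost was 12.6 percentage points with classes beyond 0.5, 13.0 when absence from 1 list was enough, and 2.50 to 8.73 without each library. The cause was not tested for any of these.

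Replicate numbers are not stated to pair the libraries, and deviations of same-numbered libraries correlated at 0.139 over 2 pairs. With a replicate block 832 genes rose and 1306 fell in coverage, 5293 fell in level, and genes with sites moving both ways in A+G reads numbered 7, against 5 to 9 without each library and 11 in all.

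Small coverage changes changed sign. With no centring Rrn3 was at 0.12, Nktr at 0.0445, Gpat4 at 0.14, Rnf139 at 0.11, Smad7 at 0.13, Kti12 at 0.11, Mlec at 0.0682 and Frrs1 at 0.16; centred on genes with 1 site, Gpat4 was at 0.0106, Smad7 at 0.00126 and Frrs1 at 0.0307. Without each library, Mrpl10 ranged from -0.0568 (siVirma replicate 1 left out) to 0.0972, Frrs1 from -0.0184 to 0.00318 (siVirma replicate 1 left out) and Gpat4 from -0.0602 to 0.00929 (siVirma replicate 2 left out). By A+G reads Gpat4 was at 0.0128, Rnf139 at 0.0181, Ythdc1 at -0.10, U2af2 at 0.0166 and Ccnd1 at -7.7e-05. Of 60 named genes with coverage, 30 lost their call without siVirma replicate 1 and 13 with no centring. Sites under 15 reads and genes with no listed site have no value.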

Other observations

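A+G reads at single sites showed 11 genes in which 1 or more sites rose and 1 or more fell, after the number of reads was compared site by site with edgeR (chosen after seeing the data). Of 23354 sites in all 4 lists, 781 rose (3.34%) and 1087 fell (4.65%), and of 3977 genes with 2 or more such sites 750 had a called site, so genes that moved both ways were 0.277% of them. They are Hnrnpa0, Knop1, Ncl, Nfya, Nolc1, Sap30bp, Sar1a, Wtap, Ythdc1, Ythdf3 and Zfc3h1, with Wtap a subunit of the m6A writer complex and Ythdc1 and Ythdf3 readers of the mark. Hnrnpa0, Sar1a and Wtap kept both directions when each library was left out in turn.

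In Sar1a, a GTPase of vesicle transport on the plus strand of chromosome 10 (mm39), reads at position 61527176 were 117, 81, 269 and 261, a rise of 1.16 on the log2 scale (SE 0.13, edgeR, adjusted p = 7.31e-15). At position 61527383, the next tested site downstream, they were 178, 143, 148 and 116 (-0.55, adjusted p = 0.00233), and the other 4 tested sites downstream fell by 0.55 to 0.66. The level fell on both sides of the turn, from 0.470 and 0.469 to 0.112 and 0.126 at the first site and from 0.444 and 0.434 to 0.216 and 0.241 at the second.

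In Hnrnpa0, an RNA-binding protein on the minus strand of chromosome 13, reads at position 58275025 were 363, 341, 889 and 746, a rise of 0.95 (SE 0.10, edgeR, adjusted p = 1.04e-18). At position 58274371, further downstream, they were 234, 215, 184 and 141 (-0.73, adjusted p = 6.80e-07), and 2 more sites downstream of it fell by 0.54 and 0.70. In Ythdc1, on the plus strand of chromosome 5, reads at position 86975999 went from 43 and 38 to 25 and 22 (-1.05, adjusted p = 0.00229) and at position 86983923 from 46 and 48 to 101 and 81 (0.68, adjusted p = 0.0114). Here the upstream site fell, as in Wtap, and in Sar1a and Hnrnpa0 the downstream sites fell. In Ythdc1 both calls held together when siNC replicate 2 was left out and not when any of the other libraries was. Which transcript forms these sites belong to was not analysed here.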
